A study of Mus musculus with 3 samples.

Results

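The genes of iron handling followed here across lung cells were Trf, Tfrc, Slc40a1, Slc11a1, Hmox1, Fth1, Ftl1 and Blvrb. They were chosen by symbol, as the genes of iron uptake, iron storage and heme recycling, with earlier results of these data known. All 8 of the 8 symbols matched 1 row each among the 32285 genes counted, and all 8 held at least 20 UMIs (unique molecular identifiers, 1 per captured RNA molecule) in the macrophages compared.

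The data were droplet-based 3′ single-cell RNA counts from digested mouse lungs, with 1 library per group. The PPARγ-/- Tumor mice carried Ccsp-rtTA and TetO-EGFR, a lung cancer-associated mutant of EGFR switched on by doxycycline in airway epithelium, together with floxed Pparg alleles (Pparγfl/fl) and Csf1rCre, in which the Csf1r promoter drives Cre in monocytes and macrophages. The WT Tumor mice carried the same EGFR transgenes and Pparγfl/fl without Cre. The WT Healthy mice carried the EGFR transgenes without floxed alleles or Cre per the labels, which do not say how they stayed free of tumours. All 3 groups received chow with 625 ppm doxycycline and were 16 to 20 weeks old, and cells of 3 mice were pooled per library after 4 sorted populations were mixed in equal parts: epithelium (EPCAM+), T cells (CD3+), alveolar macrophages (CD11c+SigF+) and other CD11b+Ly6G- macrophages. Each group is a single pooled library, so no difference has a replicate check. No p-value is given, every interval covers counting error only, and a gene was called higher or lower by a rule of size: at least 1.5-fold, a 95% interval of the ratio that excludes 1, and at least 20 UMIs over both libraries.

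As background, transferrin (Trf) carries iron in plasma and is taken up with transferrin receptor 1 (Tfrc). Ferritin, a shell of heavy (Fth1) and light (Ftl1) chains, stores iron inside the cell, and ferroportin (Slc40a1) is the only known exporter of ferrous iron in mammals. Macrophages recycle iron from engulfed red cells: Hmox1 opens the heme ring and frees its iron, biliverdin reductases (Blvrb is one) reduce bile pigment, and Slc11a1 (Nramp1) moves metal ions out of the phagosome. Iron regulatory proteins bind a stem-loop called the iron-responsive element, which lowers translation when it lies in a 5′ UTR and stabilises the message when it lies in a 3′ UTR.

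Because the counts read messages and not translation, the elements are shown first for the 4 genes in which a search found them. They are 30-base windows of GENCODE vM21 transcripts on GRCm38, written 5′ to 3′ along the transcript, and the capitals mark the 6-base loop. All lie in UTR exons.
Fth1 5′ UTR, chr19:9982730-9982759, plus strand: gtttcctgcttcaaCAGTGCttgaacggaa
Ftl1 5′ UTR, chr7:45459780-45459809, minus strand: gtgtcttgcttcaaCAGTGTttgaacggaa
Slc40a1 5′ UTR, chr1:45925466-45925495, minus strand: tccaacttcagctaCAGTGTtagctaagtt
Tfrc 3′ UTR, chr16:32631217-32631246, plus strand: ataattatcggaagCAGTGCcttccataat
Tfrc 3′ UTR, chr16:32631596-32631625, plus strand: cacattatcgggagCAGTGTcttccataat
Tfrc 3′ UTR, chr16:32631661-32631690, plus strand: gtctatatcggagaCAGTGAtctccatatg
Tfrc 3′ UTR, chr16:32631708-32631737, plus strand: gtaattatcgggaaCAGTGTttcccataat

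The search asked for CNNNNNCAGTGN on the transcript strand, with a last loop base other than G and 5 base pairs (G with T allowed) between the bases on either side of the loop. It matched 5′ UTRs of 20 of 19977 genes (0.1%) and 3′ UTRs of 97 of 20814 genes (0.466%). The search found a single window in each of Fth1, Ftl1 and Slc40a1, and 4 in Tfrc. Elements of another form would be missed. Trf, Slc11a1, Hmox1 and Blvrb had no match in their UTRs. The match is a description of these letters only.

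The libraries held 44548318 UMIs in PPARγ-/- Tumor, 46148658 in WT Tumor and 30454790 in WT Healthy, and 4995, 4268 and 2894 cells were kept in that order. Median depth was 3457, 4773.5 and 5563 UMIs per cell, and 4 to 6 barcodes were shared between any pair of libraries. Macrophages, named by their markers and clustered without the iron genes, numbered 1317, 1264 and 1002, and most fell into a cluster of their own in each library: cluster 1 (1160 PPARγ-/- Tumor cells, 8 of 12 interstitial and 7 of 12 alveolar markers raised, led by Apoe and C1qb), cluster 6 (963 WT Tumor cells, 11 of 12 alveolar markers) and cluster 26 (861 WT Healthy cells, 12 of 12 alveolar markers). In the macrophage lineage the 12 interstitial markers summed to 18672 CPM (UMIs scaled to a total of 1000000 per class and library) in PPARγ-/- Tumor, 3950.4 CPM in WT Tumor and 2199 CPM in WT Healthy, and the 12 alveolar markers to 14657, 20418 and 23314 CPM. The kind of macrophage and the genotype cannot be told apart for those main clusters. Pparg messages stood at 362, 156 and 192 CPM in the macrophage lineage; 3′ counts can include a message that lacks an internal exon, so they check no deletion. Xist stood at 0.305, 0.177 and 1233 CPM over all cells and the Y-linked Ddx3y at 74.5, 81.7 and 0.131 CPM, against a label of about equal sexes, so sex and tumour cannot be told apart in WT Tumor over WT Healthy.

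Each gene had its own order of cell classes. In WT Healthy, Trf stood highest in the macrophage lineage at 1163 CPM, followed by nonclassical monocytes (539 CPM) and then classical monocytes (383 CPM), dendritic cells (319 CPM) and surfactant-secreting AT2 epithelium (302 CPM). The intervals of the last 3 overlapped between neighbours. T cells held 17.6 CPM, which is open to free RNA: 10% of the level in near-empty droplets (850.1 CPM) would cover more than 50% of it. Tfrc ran in another order: AT2 cells stood at 114 CPM in PPARγ-/- Tumor, 142 CPM in WT Tumor and 275 CPM in WT Healthy, above the other classes of those libraries. The 41 WT Healthy AT2 cells were too few for a ratio.

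Slc11a1 was highest in nonclassical monocytes in all 3 libraries, at 209, 238 and 254 CPM in PPARγ-/- Tumor, WT Tumor and WT Healthy. Hmox1 was likewise highest there, at 280.2, 356 and 258 CPM. Slc40a1, by contrast, held 0 UMIs in classical monocytes, dendritic cells and B cells of every library, which allows up to 5.18, 4.34 and 2.60 CPM in classical monocytes. Outside the macrophage lineage its level was highest in neutrophils among the classes of at least 18 cells, at 11 UMIs in 27 PPARγ-/- Tumor cells, 1 UMI in 18 WT Tumor cells and 10 UMIs in 21 WT Healthy cells. Fth1 and Ftl1 were highest in macrophages of each library among the classes drawn.

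**Figure D1:**
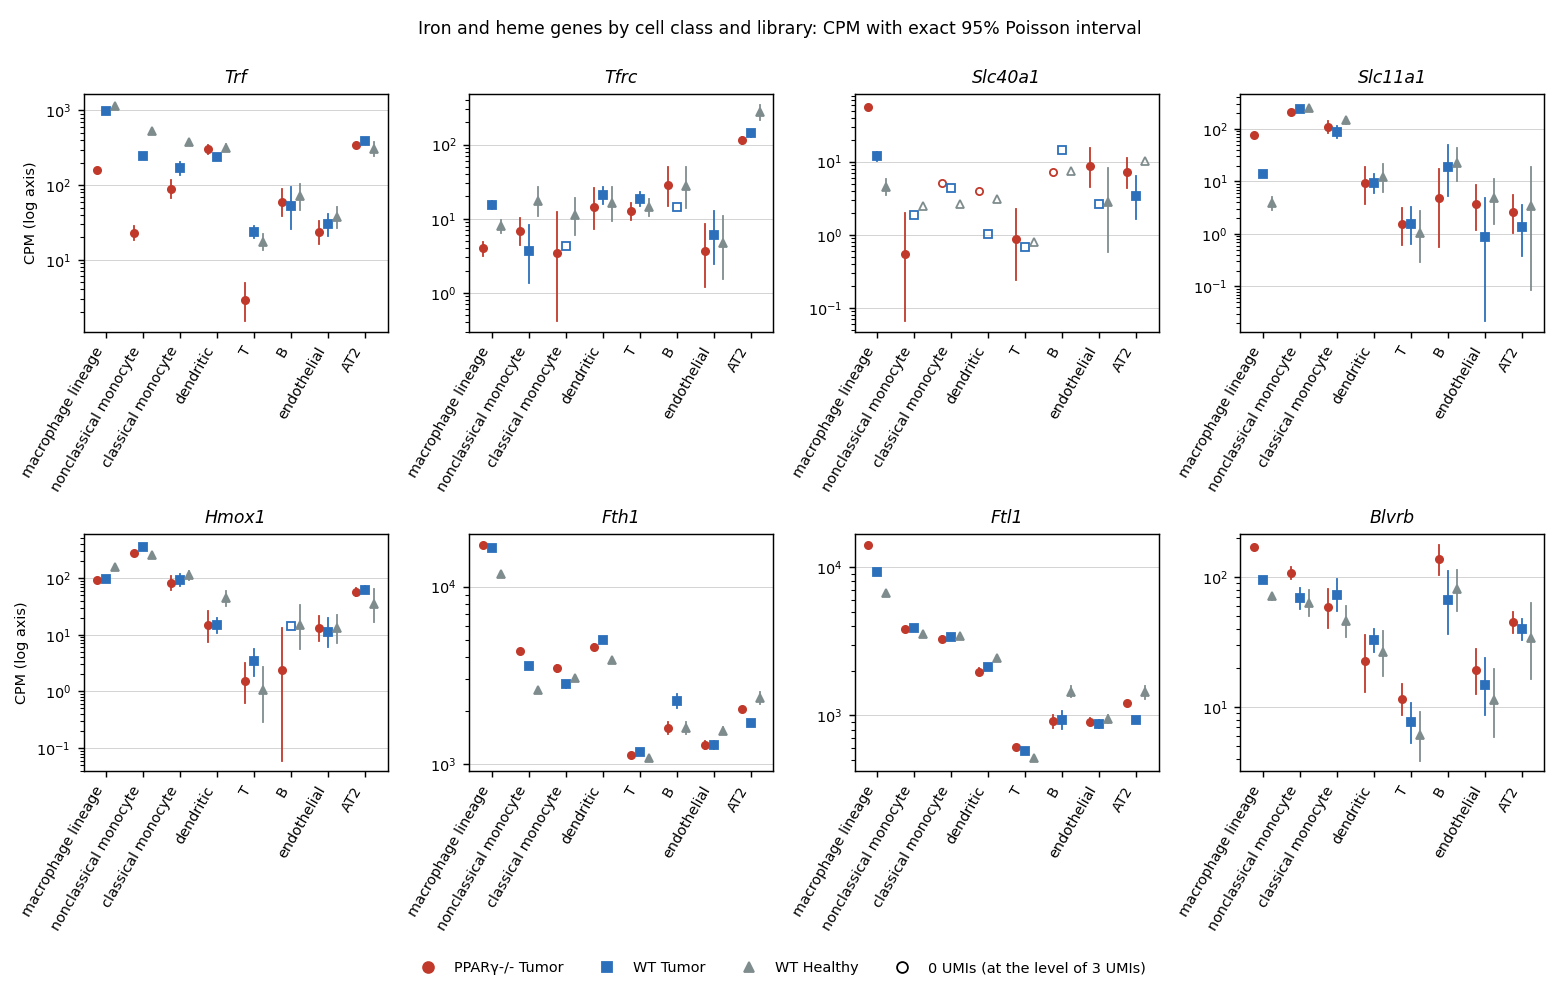
Levels of the 8 genes (CPM, log axis) in 8 cell classes with at least 40 cells, for PPARγ-/- Tumor (red circles), WT Tumor (blue squares) and WT Healthy (grey triangles); bars are exact 95% Poisson intervals and open symbols mark 0 UMIs, drawn at the level of 3 UMIs. Trf in macrophages stands at 158 CPM in PPARγ-/- Tumor, against 970.2 CPM in WT Tumor, while in AT2 cells the tumour libraries stand at 341 and 388 CPM.

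Trf, the carrier, showed the widest gap between the tumour libraries among the genes that were lower. In the macrophage lineage it stood at 158 CPM (95% interval 153 to 163) in PPARγ-/- Tumor, 970.2 CPM (956 to 985) in WT Tumor and 1163 CPM (1145 to 1181) in WT Healthy. The PPARγ-/- Tumor library was the low one, and the intervals of the 3 libraries were apart. The log2 ratio of PPARγ-/- Tumor over WT Tumor was -2.62 (95% interval -2.67 to -2.56), and that of WT Tumor over WT Healthy was -0.26 (-0.29 to -0.23), under 1.5-fold.

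Between the main macrophage clusters of the libraries, which differ in kind, the gap ran through most cells and not a tail. PPARγ-/- Tumor cells that fell into clusters 6 and 5 did not share it, as given below. In cluster 1 the median cell held 0.634 Trf UMIs per 10000 in PPARγ-/- Tumor, against 9.70 in WT Tumor (cluster 6) and 12.2 in WT Healthy (cluster 26). The 90th percentile in PPARγ-/- Tumor was 2.70 per 10000, below the 10th percentile of WT Tumor, 5.24. After each cell was thinned to 1000 UMIs, 9.22% of PPARγ-/- Tumor, 62.4% of WT Tumor and 68.2% of WT Healthy cells of these clusters held a Trf UMI (61.5%, 99.7% and 99.3% unthinned). In T cells, a class whose Trf level is open to free RNA in all 3 libraries, the thinned shares were 0.247%, 2.34% and 2.05%. Median depths were 16493.5, 14886 and 12754 UMIs in the macrophage clusters and 2693, 3027 and 3763 in T cells.

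**Figure D2:**
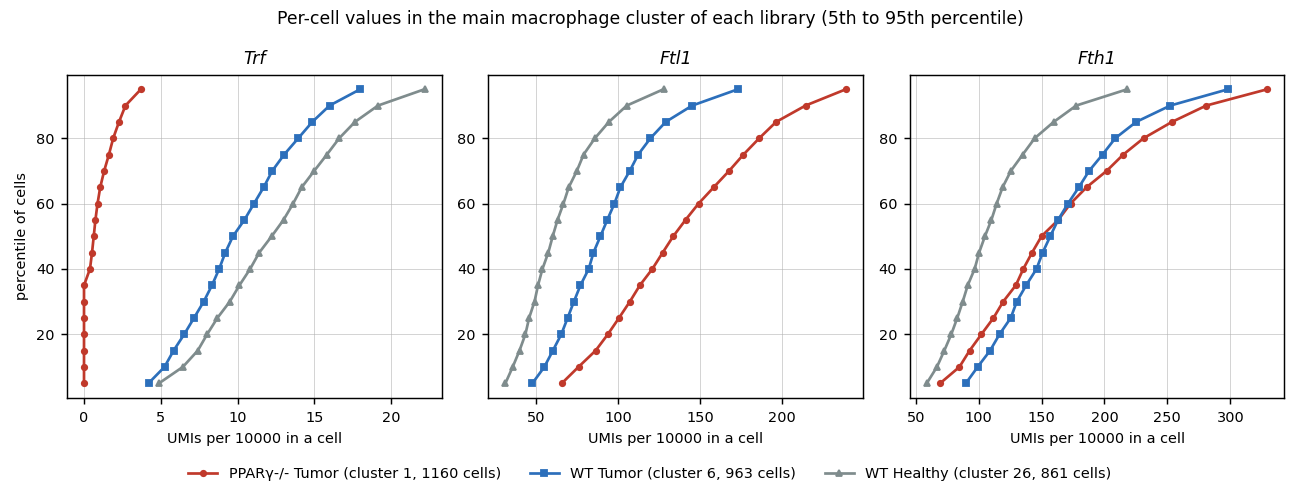
UMIs per 10000 in a cell (horizontal) by percentile of cells (vertical, 5th to 95th) in cluster 1 of PPARγ-/- Tumor, cluster 6 of WT Tumor and cluster 26 of WT Healthy, for Trf, Ftl1 and Fth1. The Trf median is 0.634 in PPARγ-/- Tumor, 9.70 in WT Tumor and 12.2 in WT Healthy, and the Ftl1 medians of 134 in PPARγ-/- Tumor and 89.1 in WT Tumor run the other way, while the Fth1 curves of the tumour libraries cross.

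Tfrc, the receptor, was sparse in macrophages. It stood at 3.97 CPM (85 UMIs) in PPARγ-/- Tumor, 15.2 CPM (271 UMIs) in WT Tumor and 7.86 CPM (105 UMIs) in WT Healthy. WT Tumor was the high library and PPARγ-/- Tumor the low one. The log2 ratio was -1.94 (-2.31 to -1.58) for PPARγ-/- Tumor over WT Tumor and 0.95 (0.62 to 1.29) for WT Tumor over WT Healthy. In the cycling alveolar cluster 16 Tfrc reached 34.1 CPM in 83 WT Tumor cells, against 9.66 CPM in 45 WT Healthy cells, and 2 UMIs were seen in 20 PPARγ-/- Tumor cells. The 8 cycling markers summed to 108 CPM in the PPARγ-/- Tumor macrophage lineage, 472 CPM in WT Tumor and 438 CPM in WT Healthy, and their part in the Tfrc levels was not tested.

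Slc40a1, the exporter, was higher in PPARγ-/- Tumor macrophages. It stood at 56.1 CPM (1200 UMIs) in PPARγ-/- Tumor, 11.9 CPM (211 UMIs) in WT Tumor and 4.57 CPM (61 UMIs) in WT Healthy. The levels stepped down across the 3 libraries with no overlap of intervals. A single WT Healthy cell gave 21 of the 61 UMIs, and the level without it was 2.9995 CPM. The log2 ratio was 2.24 (2.03 to 2.46) for PPARγ-/- Tumor over WT Tumor and 1.38 (0.96 to 1.81) for WT Tumor over WT Healthy. In the main clusters 48.8%, 14.4% and 2.90% of cells held a Slc40a1 UMI, and after thinning 5.52%, 0.312% and 0.465%, against 0.124%, 0% and 0% of T cells.

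Slc11a1, the phagosomal transporter, had the largest ratio among the genes higher in PPARγ-/- Tumor than in WT Tumor. In the macrophage lineage it stood at 77.4 CPM in PPARγ-/- Tumor, 13.9 CPM in WT Tumor and 3.89 CPM in WT Healthy, with log2 ratios of 2.48 (2.29 to 2.68) and 1.83 (1.40 to 2.29). In the main clusters the values were 81.3 CPM (1602 UMIs) in cluster 1, 1.35 CPM (20 UMIs) in cluster 6 and 0.792 CPM (9 UMIs) in cluster 26. The values of clusters 6 and 26 are open to free RNA by the measure above, which held 55.6, 17.2 and 19.3 CPM in the libraries in the same order. In WT Tumor, 219 of the 247 UMIs came from the 178 cells of interstitial cluster 5, so the ratio of WT Tumor over WT Healthy within the main clusters was 0.77 (-0.43 to 2.09), an interval that includes 0. The 9 neutrophil markers, of which 7, 6 and 6 were seen, summed to 304, 118 and 155 CPM in the macrophage lineage, and their part in the Slc11a1 levels was not tested.

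The ferritin chains differed from each other. Fth1 stood at 17138 CPM in PPARγ-/- Tumor, 16406 CPM in WT Tumor and 11775 CPM in WT Healthy macrophages. The tumour libraries lay close, with a log2 ratio of 0.06 (0.06 to 0.07), and WT Tumor over WT Healthy was 0.48 (0.47 to 0.49), under 1.5-fold. Ftl1 stood at 14052, 9206 and 6665 CPM in the same libraries, a step down each time, with log2 ratios of 0.61 (0.60 to 0.62) and 0.47 (0.45 to 0.48). The ratio of Fth1 to Ftl1 UMIs was thus 1.22 in PPARγ-/- Tumor, 1.78 in WT Tumor and 1.77 in WT Healthy. Both chains together took 3.12% of all macrophage UMIs in PPARγ-/- Tumor, 2.56% in WT Tumor and 1.84% in WT Healthy. The Ftl1 counts are uncertain in 1 respect: a near-identical copy, Ftl1-ps1, received 2579, 1621 and 1359 UMIs, and how reads were split between them is not given in the sources used here. At the far end, alveolar cluster 27 held 27 WT Tumor cells of 1529 median UMIs in which ferritin was 9.01% of UMIs.

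Nonclassical monocytes had another order of the chain balance. There the Fth1 to Ftl1 ratio was 1.13 in PPARγ-/- Tumor, 0.925 in WT Tumor and 0.742 in WT Healthy, so PPARγ-/- Tumor was the highest library, whereas in macrophages it was the lowest. Fth1 itself stood at 4351, 3587 and 2617 CPM and Ftl1 at 3833, 3877 and 3529 CPM.

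The heme-breakdown genes Hmox1 and Blvrb did not move alike. Hmox1 stood at 91.5 CPM in PPARγ-/- Tumor, 96.4 CPM in WT Tumor and 155 CPM in WT Healthy macrophages. The tumour libraries had overlapping intervals, with a log2 ratio of -0.08 (-0.17 to 0.02), while WT Tumor over WT Healthy was -0.68 (-0.77 to -0.59). Hmox1 was uneven over cells: 1 cell held 91, 128 and 169 UMIs in the 3 libraries, and the levels without it were 87.3, 89.3 and 142 CPM. Over the macrophage lineage the summed CPM of 14 dissociation and heat stress genes, all 14 seen, was 1668 in PPARγ-/- Tumor, 1732 in WT Tumor and 2953 in WT Healthy, and the part of handling in the Hmox1 levels was not tested. The summed hemoglobin and other erythroid markers stood at 5.94, 5.79 and 6.74 CPM with 5, 4 and 3 of 7 seen. Blvrb stood at 172, 94.6 and 71.6 CPM, with log2 ratios of 0.86 (0.78 to 0.95) and 0.40 (0.29 to 0.52), the second under 1.5-fold.

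Counted over the macrophage lineage, 4 of the 8 genes were higher in PPARγ-/- Tumor than in WT Tumor (Slc40a1, Slc11a1, Ftl1 and Blvrb), beside 11.9% of the 12556 genes tested, and 2 were lower (Trf and Tfrc), beside 18.2%. The median log2 ratio was 0.34 over the 8 genes and -0.16 over all genes tested. The 8 genes were chosen with earlier results of these data known, so the shares and medians of this paragraph are descriptions only. Ftl1 is the call nearest the line, at a log2 ratio of 0.61 where the rule asks for 0.58, and between clusters 1 and 6 it was 0.58 (0.57 to 0.59), just under it. In WT Tumor over WT Healthy 3 genes were higher (Tfrc, Slc40a1 and Slc11a1), beside 8.59% of 12182, and 1 was lower (Hmox1), beside 12.5%, with medians of 0.47 and -0.13. The comparisons share the WT Tumor library, so a chance high or low value there enters both with opposite sign. Over genes with 20 UMIs in both libraries the median log2 ratio was -0.17 for PPARγ-/- Tumor over WT Tumor and -0.14 for WT Tumor over WT Healthy. Scaling that sets this median to 0 puts Hmox1 at 0.10 between the tumour libraries, the other sign, and at -0.54 in WT Tumor over WT Healthy.

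**Figure D3:**
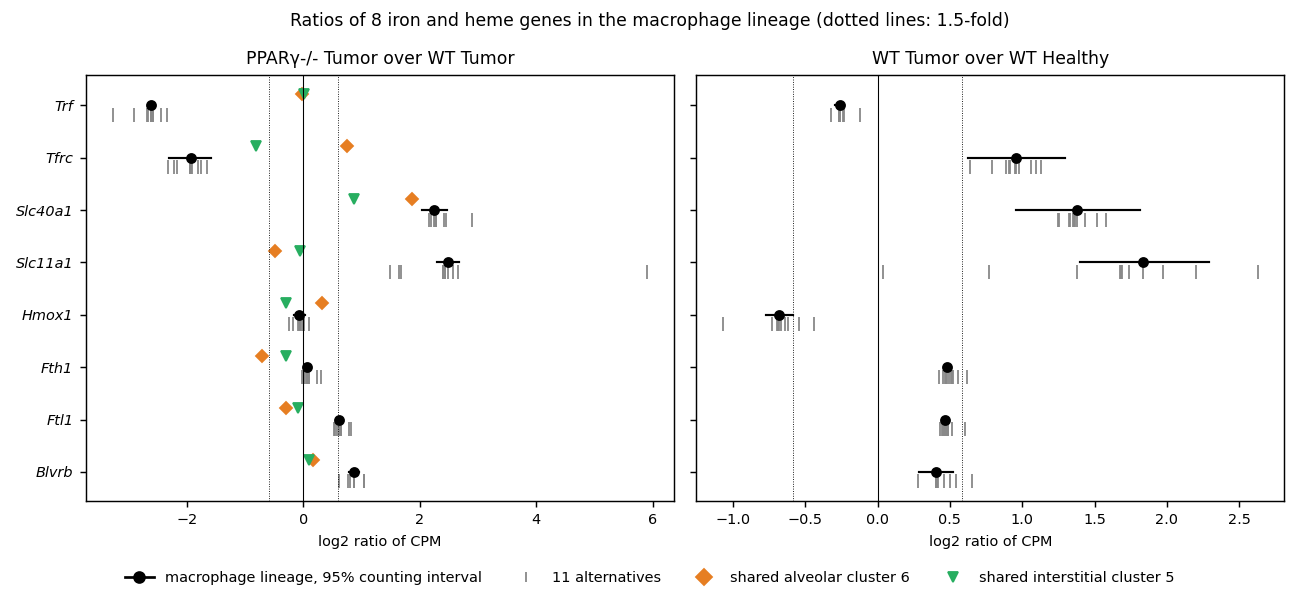
Log2 ratios of CPM for the 8 genes in the macrophage lineage, PPARγ-/- Tumor over WT Tumor (left) and WT Tumor over WT Healthy (right). Black circles are the values reported with 95% counting intervals, grey ticks the 11 alternative settings, orange diamonds and green triangles the values within clusters 6 and 5 (for Tfrc and Slc40a1 in cluster 5 from under 20 UMIs); Trf is at -2.62 for the lineage and at -0.02 and 0.01 within those clusters.

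The differences of the tumour libraries were not seen alike in clusters that both libraries shared. Alveolar cluster 6 held 82 PPARγ-/- Tumor and 963 WT Tumor cells, and there Trf stood at 1007 and 1023 CPM, a log2 ratio of -0.02 (-0.11 to 0.07). Interstitial cluster 5, with 53 and 178 cells, held Trf at 521 and 518 CPM, a log2 ratio of 0.01 (-0.25 to 0.26). The interval of cluster 6 leaves no room for a 1.5-fold difference in Trf by counting error. The low Trf level was thus that of the other PPARγ-/- Tumor macrophages, 1160 of which formed cluster 1 at 105 CPM. Cluster 1 also held 7 WT Tumor cells, with 84 Trf UMIs at 943 CPM. The 20 cycling PPARγ-/- Tumor cells of cluster 16 stood at 266 CPM, against 857 CPM in WT Tumor and 812 CPM in WT Healthy.

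Of the genes called over the lineage, only Slc40a1 was called in the same direction in cluster 6. It stood at 46.2 CPM in the 82 PPARγ-/- Tumor cells, against 12.6 CPM in the WT Tumor cells, a log2 ratio of 1.87 (1.38 to 2.33). Tfrc was also higher there, at 24.0 against 14.3 CPM (0.75, 0.09 to 1.35), the opposite of its direction over the whole lineage. Fth1 was lower, at 10606 against 17454 CPM (-0.72, -0.75 to -0.69), and Ftl1 stood at 7965 against 9776 CPM (-0.30, -0.33 to -0.26). In cluster 6 these were 2 of 8 genes higher, beside 6.01% of 10778 genes, and 1 lower, beside 3.83%. The Fth1 to Ftl1 ratio in cluster 6 was 1.33 in PPARγ-/- Tumor and 1.79 in WT Tumor, the same order as over the lineage. In cluster 5 Tfrc and Slc40a1 had under 20 UMIs, and 0 of the other 6 genes passed the rule in either direction, beside 4.34% higher and 3.75% lower of 7484. Slc11a1 stood at 154 CPM in PPARγ-/- Tumor and 162 CPM in WT Tumor there.

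**Figure D4:**
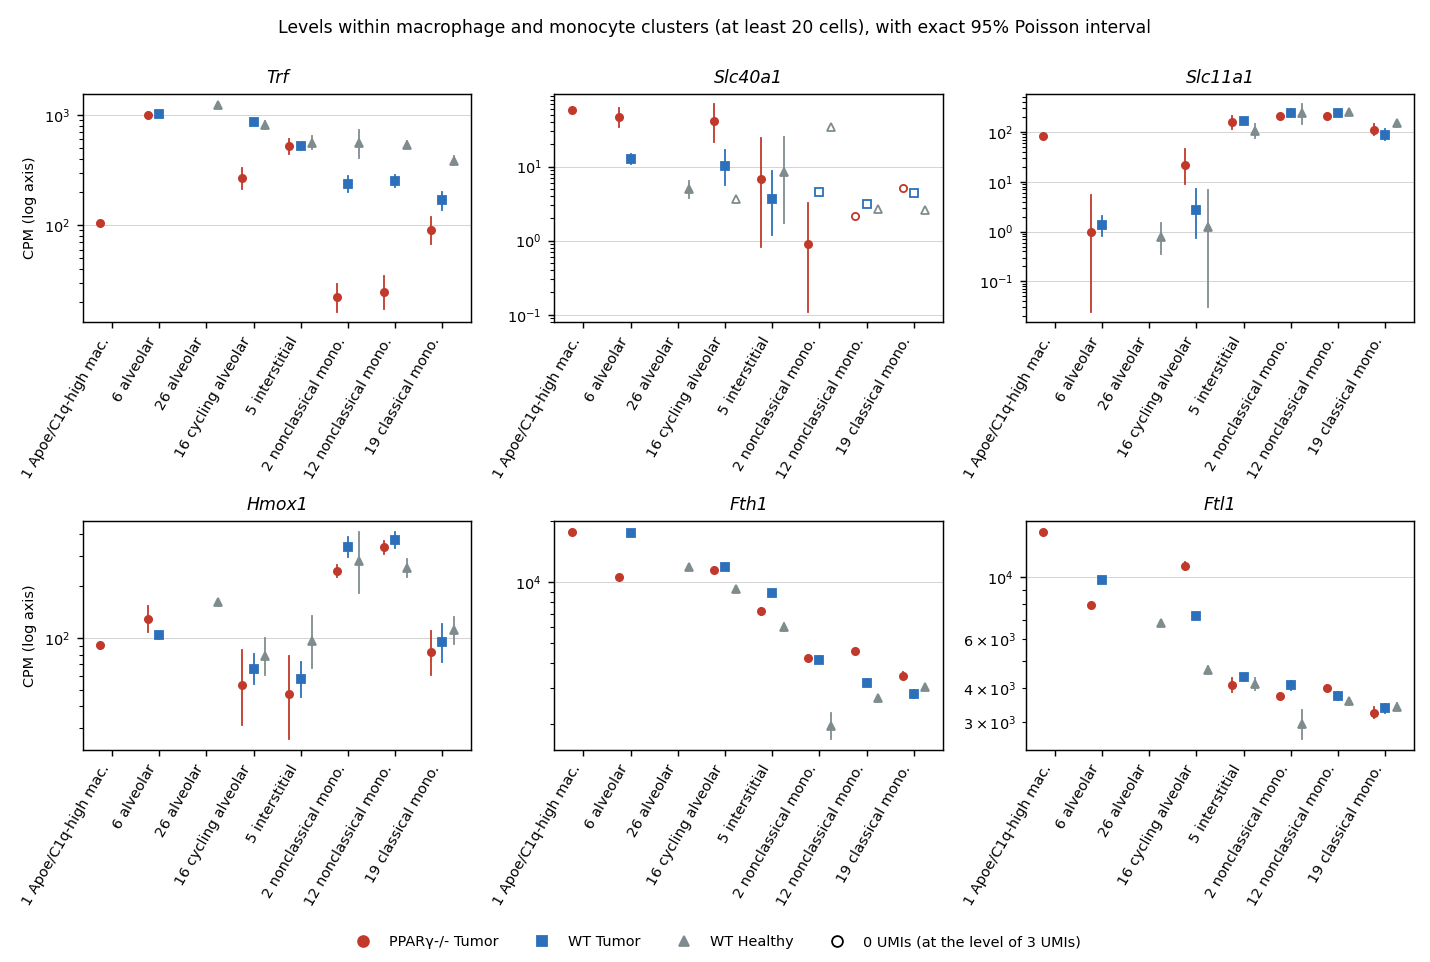
Levels (CPM, log axis) of 6 of the genes within macrophage and monocyte clusters that hold at least 20 cells of a library; bars are exact 95% Poisson intervals and open symbols mark 0 UMIs, drawn at the level of 3 UMIs. Trf is at 1007 CPM in PPARγ-/- Tumor and 1023 CPM in WT Tumor within cluster 6, and at 105 CPM in cluster 1, while in nonclassical clusters 2 and 12 the PPARγ-/- Tumor values are 22.1 and 24.8 CPM.

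Monocytes, in which Cre activity was not measured, shared the Trf difference in clusters common to the libraries. In nonclassical monocytes Trf stood at 23.2 CPM (84 UMIs in 1023 cells) in PPARγ-/- Tumor, 245 CPM (395 UMIs in 494 cells) in WT Tumor and 539 CPM (646 UMIs in 238 cells) in WT Healthy. The levels stepped up from library to library, and no intervals overlapped. The log2 ratios were -3.40 (-3.76 to -3.06) and -1.14 (-1.32 to -0.95). Within cluster 2 alone the tumour comparison gave -3.42, and within cluster 12 alone it gave -3.34. Thinned shares of cells with a Trf UMI were 1.86%, 20.9% and 38.2%, at median depths of 2792, 2621 and 4011.5 UMIs. Free RNA held 161, 676 and 850.1 CPM of Trf in the same order, so it moves with the result, and the PPARγ-/- Tumor level is open to it. Its part in the difference was not tested. T cells, in which Cre activity was not measured either, stood at 2.85 CPM (13 UMIs) in PPARγ-/- Tumor, 23.6 CPM (105 UMIs) in WT Tumor and 17.6 CPM (66 UMIs) in WT Healthy. Their tumour ratio was -3.05 (-4.01 to -2.21), close to that of the nonclassical monocytes. All 3 T cell levels are open to free RNA.

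Classical monocytes showed the same order for Trf, at 89.8, 168 and 383 CPM, with log2 ratios of -0.90 (-1.40 to -0.42) and -1.19 (-1.50 to -0.89). Dendritic cells did not: Trf stood at 303, 239.7 and 319 CPM, and the tumour ratio of 0.34 (0.12 to 0.56) was under 1.5-fold. In AT2 cells the tumour ratio was -0.19 (-0.31 to -0.06).

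Few other genes of the 8 passed the rule in monocytes. In nonclassical monocytes Blvrb was higher in PPARγ-/- Tumor than in WT Tumor (108 against 68.9 CPM, 0.65), 1 of 7 genes with enough UMIs beside 4.49% of 9208 genes, and Trf was the 1 lower gene beside 4.54%. In WT Tumor over WT Healthy, Trf and Tfrc were the 2 lower genes there, beside 5.34% of 8133, and 0 were higher, beside 5%. Tfrc rested on 6 UMIs at 3.73 CPM in WT Tumor and 21 UMIs at 17.5 CPM in WT Healthy. In classical monocytes the tumour comparison called Trf alone of 6 genes, lower beside 3.3% of 6275, with 0 higher beside 4.16%. WT Tumor over WT Healthy there called Blvrb higher (73.8 against 46.0 CPM, 0.68), beside 3.72% of 7236, and Trf and Slc11a1 lower, beside 5.78%. In dendritic cells Hmox1 alone was lower in WT Tumor than in WT Healthy, at 14.8 against 43.8 CPM (-1.56, -2.21 to -0.92), beside 7.74% of 9643, with 0 higher beside 7.09%. The WT Tumor level is open to free RNA.

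Of 61 other iron and heme genes in 8 lists, 49 held enough UMIs in the macrophage lineage. These lists were also chosen with earlier results of these data known. In PPARγ-/- Tumor over WT Tumor 5 were higher, beside 11.9% of all genes tested, and 16 lower, beside 18.2%, and their median log2 ratio was -0.24. Among uptake genes, Steap3, a ferrireductase of the transferrin cycle, was higher at 28.9 against 8.32 CPM (1.80), and Hfe, which binds the transferrin receptor, at 45.9 against 21.4 CPM (1.10). The metal transporter Slc39a14 and the lipocalin receptor Slc22a17 were lower (-0.81 and -0.84), so that 2 of 7 measured uptake genes were higher and 2 lower. Hp, the hemoglobin-binding haptoglobin, had the largest ratio, at 74.8 against 8.88 CPM (3.07), but -0.72 within cluster 6. Slc25a37, the mitochondrial iron importer mitoferrin 1, stood at 28.4 against 13.04 CPM (1.12), and Gclm, a subunit of glutathione synthesis, at 75.5 against 43.8 CPM (0.79).

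Lower calls in the lists that follow stand beside 18.2% of all 12556 genes tested. Of 3 measured genes of storage and ferritin turnover, 1 was lower in PPARγ-/- Tumor. That gene, Ncoa4, the receptor that delivers ferritin to autophagy, stood at 135 CPM in PPARγ-/- Tumor, 460.3 CPM in WT Tumor and 393 CPM in WT Healthy, log2 ratios of -1.77 and 0.23. All 3 iron-sensing genes were lower in PPARγ-/- Tumor than in WT Tumor. Aco1 and Ireb2, which encode iron regulatory proteins, had log2 ratios of -0.99 and -0.64, and Fbxl5, which marks iron regulatory proteins for degradation, had -0.81 (Fbxl5 was named after its value was seen, to complete the list). Their ratios of WT Tumor over WT Healthy were -0.10 for Aco1, -0.04 for Ireb2 and -0.13 for Fbxl5, none past the rule. Within cluster 6 the ratios between the tumour libraries were 0.12 for Aco1, 0.14 for Ireb2 and 0.06 for Fbxl5. Over the 11 alternative settings, Aco1 and Fbxl5 were lower by 1.5-fold or more in 11, and Ireb2 in 8. In heme breakdown, Blvra, the other biliverdin reductase, stood at 99.7 against 236 CPM (-1.24) and Por, the electron donor of heme oxygenase, at 28.0 against 67.4 CPM (-1.27), the opposite direction to Blvrb, so 2 of 3 measured genes of that list were lower. The heme transporter Flvcr2 (-1.41) was lower as well. The hemoglobin scavenger receptor Cd163 (-0.90) and the ferroxidase ceruloplasmin (Cp, -0.63) were lower over the lineage but higher between clusters 1 and 6, at 1.86 (29 against 6 UMIs) and 3.39 (42 against 3 UMIs).

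The regulators named for macrophage heme response differed between comparisons. Spic, a factor of iron-recycling macrophages, stood at 1.45 CPM (31 UMIs) in PPARγ-/- Tumor, 3.48 CPM (62 UMIs) in WT Tumor and 0.449 CPM (6 UMIs) in WT Healthy, log2 ratios of -1.27 and 2.96. With monocytes included the first was 0.19, and within cluster 6 it was 2.12. Bach1, a heme-binding repressor of Hmox1, stood at 92.6, 127 and 132 CPM, and Nfe2l2 (Nrf2), an activator of Hmox1, at 388, 425 and 289.97 CPM, neither past the rule. Hamp, which encodes the ferroportin ligand hepcidin, had 5, 2 and 3 UMIs. In WT Tumor over WT Healthy 7 of the 49 genes were higher, beside 8.59% of all genes tested, and 2 lower, beside 12.5%, and their median log2 ratio was 0.02. The siderophore-binding Lcn2 (2.45), Hp (1.31), the cystine transporter Slc7a11 (1.22), Cp (0.93, but -1.12 between clusters 6 and 26, from 3 and 5 UMIs), Hmox2 (0.71) and Steap3 (0.63) joined Spic as higher, and the mitoferrins Slc25a37 (-1.12) and Slc25a28 (-0.59) were lower. Lcn2 rested on 51 UMIs in WT Tumor and 7 in WT Healthy.

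**Figure D5:**
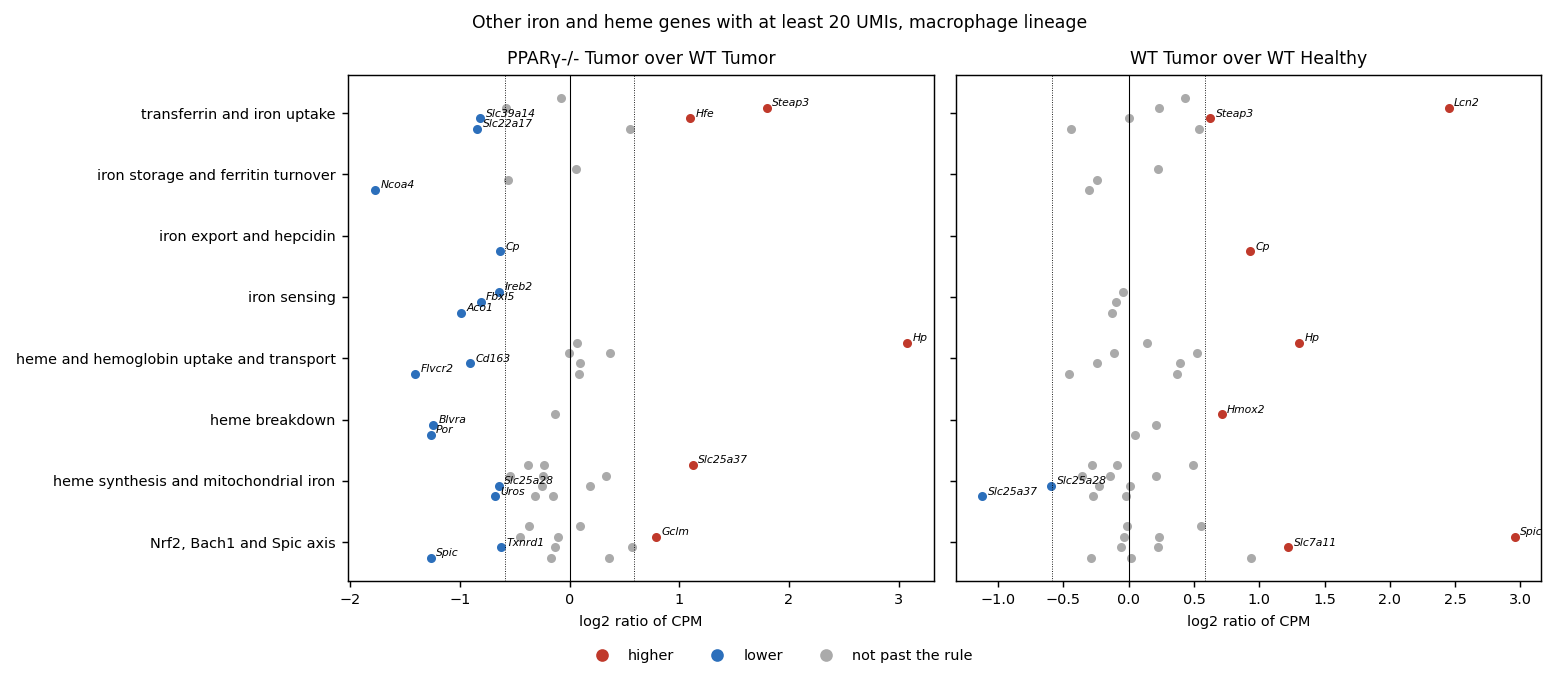
Log2 ratios of CPM in the macrophage lineage for the other iron and heme genes with at least 20 UMIs, 1 point per gene drawn, by list (1 gene counted in the text is not drawn); PPARγ-/- Tumor over WT Tumor on the left and WT Tumor over WT Healthy on the right, dotted lines at 1.5-fold. All 3 iron-sensing genes lie left of the lower line in the tumour comparison, where 18.2% of all genes tested were called lower. Ncoa4 is farthest left at -1.77.

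Across 25 profiles of a class in a library, the 8 genes were not all alike. Fth1 and Ftl1 had the highest correlation among the pairs (Pearson r of 0.93 on log2 CPM), followed by Hmox1 with Ftl1 (0.79) and Hmox1 with Slc11a1 (0.74). Tfrc with Slc11a1 was lowest, at -0.37. Of 6939 genes ranked, the most alike to Trf were Cd14 (0.83), Soat1 (0.83) and Cebpa (0.81), to Tfrc Mthfd1 (0.89), Polr1c (0.88) and Macc1 (0.87), and to Slc40a1 Syngr1 (0.91), Colec12 (0.89) and Adam33 (0.88). Cd300lb (0.96), Pla2g7 (0.96) and Apoc2 (0.96) were most like Slc11a1, and Ctsb (0.93), Fgd4 (0.92) and Tmem38b (0.92) most like Hmox1. Arl11 (0.95), Mfsd12 (0.95) and Clec4n (0.94) followed Fth1, Ftl1-ps1 (0.95), Ctsa (0.95) and Ctsz (0.95) followed Ftl1, and Atp6v0b (0.82), Pet100 (0.81) and Serp1 (0.79) followed Blvrb. The profiles share libraries, depth and cell classes, so these values are descriptions.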

How the data were processed

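Raw UMI counts per gene and barcode were deposited by the authors with no filter on barcodes (6794880 listed per library, 32285 genes, mm10). The submitters' processing notes name Cell Ranger 6.0.1 and Seurat 4.0.1, whereas the file headers name Cell Ranger 4; no aligner settings were stated in the labels or headers. Values were checked to be whole numbers.

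Barcodes with at least 1000 UMIs, 500 genes and at most 10% mitochondrial UMIs were kept, and Scrublet at an expected 6% removed 142 PPARγ-/- Tumor, 106 WT Tumor and 53 WT Healthy doublets. Counts were log-normalised, and 2000 variable genes (without the iron and heme genes, Pparg, Xist, Tsix and Y-linked genes) gave 30 principal components, 15 neighbours and Leiden clusters at resolution 1 with scanpy 1.11.5, without integration. A cluster was named from 23 marker sets by at least 3 markers raised 4-fold over the median cluster (10 CPM added) in at least 10% of cells. Class names are rebuilt from these markers and are not the study's.

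UMIs were summed per class and library and scaled to CPM. Levels have exact Poisson intervals and ratios exact conditional intervals (95%); levels of 0 are given with a floor of 3 counts. PCR duplicates are removed by UMI, but intervals and floors cover counting error only. Ratios needed 50 cells in both libraries. Free RNA was the profile of barcodes with 10 to 100 UMIs, and 10% of that profile covering 50% or more of a level made the level open to it. Likeness used log2(CPM + 10) over genes reaching 50 CPM. The ratio code was tested on simulated data. No sample columns were left unused.

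The 8 genes and all lists were chosen with earlier results of these data known; the stress list was added after the data were opened. Named genes are the 8, the up to 10 largest calls in each direction among the other iron and heme genes, 8 set regulators and the 3 genes most alike to each; 1 gene of the lists is counted but not reported here by name. Groups follow the sample titles and genotypes. The series title names another study and was not used.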

Additional observations from a re-analysis of the deposited data

Results flagged for a closer look

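A pair of genes were called in opposite directions in 2 cell classes in WT Tumor over WT Healthy. Tfrc had a log2 ratio of 0.95 in the macrophage lineage (15.2 against 7.86 CPM) and -2.23 in nonclassical monocytes (3.73 against 17.5 CPM, 6 and 21 UMIs). The difference between the classes was not tested, and the WT Tumor monocyte level is open to free RNA. Slc11a1 had 1.83 in the macrophage lineage (13.9 against 3.89 CPM) and -0.74 in classical monocytes (88.2 against 147 CPM, 61 and 170 UMIs). That difference was not tested either, and 219 of the 247 macrophage UMIs in WT Tumor came from interstitial cluster 5.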

How the results depend on the processing

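Under 11 alternative settings (5% mitochondrial limit, 2000 UMIs, doublets kept, finer clusters, libraries clustered alone, the largest macrophage cluster of each library, macrophages with monocytes, median-of-ratios scaling, 10% free RNA subtracted, equal weight per cell, no minimum of UMIs) those of the 8 genes that were called in the macrophage lineage kept their direction. Of the other iron genes called, checked after the data were seen, the tumour comparison turned for Cp (3.39) and Cd163 (1.86) in the largest clusters and for Spic (0.19) with monocytes, and WT Tumor over WT Healthy for Cp (-1.12) in the largest clusters. Hp in both comparisons and Lcn2 in WT Tumor over WT Healthy had a ratio in 10 of the 11 settings. No ratio was taken where a library was left without UMIs of the gene. Over these settings the log2 ratio of PPARγ-/- Tumor over WT Tumor ranged from -3.28 to -2.35 for Trf, -2.34 to -1.66 for Tfrc, 2.16 to 2.89 for Slc40a1, 1.49 to 5.91 for Slc11a1, 0.53 to 0.82 for Ftl1 (past 1.5-fold in 8 of 11) and 0.60 to 1.04 for Blvrb. For WT Tumor over WT Healthy it ranged from 0.64 to 1.13 for Tfrc, 1.25 to 1.58 for Slc40a1, 0.04 (with monocytes) to 2.63 for Slc11a1 and -1.07 to -0.44 for Hmox1 (past 1.5-fold in 9 of 11).

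Settings added after the data were seen changed more. Within cluster 6 alone the tumour comparison had 2 of the 8 genes higher and 1 lower. Of 47 other iron genes with enough UMIs there, 5 were higher and 3 lower. These counts stand beside 6.01% higher and 3.83% lower of 10778 genes. Among those of the 8 genes called over the lineage, the sign changed, whatever the size, for Tfrc (0.75), Slc11a1 (-0.49, 1 PPARγ-/- Tumor UMI) and Ftl1 (-0.30). Fth1, which was not called over the lineage, was the 1 lower gene in cluster 6, and its sign changed too. Of the other iron genes called over the lineage, the sign changed for Cp (2.24), Ireb2 (0.14), Aco1 (0.12), Fbxl5 (0.057), Hp (-0.72), Spic (2.12) and Gclm (-0.16). Within cluster 5 alone 0 of the 8 genes were higher and 0 lower. Of 36 other iron genes with enough UMIs there, 1 was higher and 1 lower, beside 4.34% and 3.75% of 7484 genes. Trf was 0.0065, Slc11a1 -0.068 and Ftl1 -0.090. Of the other iron genes called over the lineage, the sign changed, whatever the size, for Steap3 (-0.34), Hfe (-0.31), Slc22a17 (0.18), Cp (0.61), Ireb2 (0.81), Fbxl5 (0.30), Cd163 (0.18), Spic (1.05) and Gclm (-0.10). In either cluster, values near 0 are a lost difference and not an opposite one. Cluster 6 held 82 PPARγ-/- Tumor cells and cluster 5 held 53. The cause of these changes was not tested. In the largest clusters 9 of 49 other iron genes were higher in PPARγ-/- Tumor and 15 lower. Of all 12103 genes tested there, 1818 were higher and 2252 lower. In WT Tumor over WT Healthy, 1 other iron gene was lower, in place of 2, with 2000 UMIs, libraries clustered alone, largest clusters, monocytes included, median-of-ratios scaling or free RNA subtracted. With monocytes included 0 of the 8 were lower, and under median-of-ratios scaling 5 were higher and 0 lower.

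Of the levels by class and library, 54 moved outside their main counting interval and 114 did not at the 5% mitochondrial limit, and 13 moved and 171 did not at 2000 UMIs; finer clusters (24 and 168), doublets kept (46 and 146) and libraries clustered alone (26 and 150) lay between.

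No paired analysis was possible because each group is 1 library. For the same reason no replicate was left out. The pooled mice, sex, kind of macrophage and genotype cannot be parted here, and no gene with under 20 UMIs was called.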
